A study of Mus musculus with 4 samples.

Results

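The alcohol dehydrogenase (ADH) and aldehyde dehydrogenase (ALDH) genes described here are 10 genes of mouse liver, Adh1, Adh4, Adh5, Aldh1a1, Aldh1a7, Aldh1b1, Aldh1l1, Aldh2, Aldh3a2 and Aldh8a1, taken by symbol from the 27027 genes of the count table. Hepatic RNA was from male C57BL/6 mice (C57BL/6J by the study's methods) of 9 to 12 weeks that had been fasted for 10 h and then received, intraperitoneally, either 0.9% NaCl solution (control) or acetaminophen (APAP, a painkiller that is toxic to hepatocytes at high dose) at 300 mg/kg. Livers were taken at 24 h or 48 h, so all 4 groups share the fasting and the injection. RNA was pooled in equal shares per group, from 6 mice in each control pool and 7 mice in each APAP pool, and each pool gave 1 library by massive analysis of cDNA ends (MACE), which reads the 3′ ends of polyadenylated mRNA. With 1 pooled library per group the differences have no replicate check. No p-value was computed, and every interval given here is a 95% interval that covers counting error only, not the spread between mice or pools.

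ADH enzymes oxidize alcohols to aldehydes with NAD+, and ALDH enzymes oxidize aldehydes to acids. In the liver, class I ADH and the mitochondrial enzyme ALDH2 form the main route of ethanol breakdown, by way of acetaldehyde. Other family members act on retinol and retinal, on formaldehyde bound to glutathione, on long-chain fatty aldehydes and on the folate cofactor 10-formyltetrahydrofolate. Hepatocytes are the main site of expression of most of these genes in the liver.

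By the GENCODE annotation of build GRCm38 (mm10, the build of the counts), the 3 ADH genes lie on the plus strand of chromosome 3, in a cluster of 6 ADH genes that spans 238 kb from 138217760 to 138455499. Within it, Adh1 takes chr3:138260991-138290698, Adh4 chr3:138415466-138430892 and Adh5 chr3:138443093-138455499. On chromosome 19, Aldh1a1 (chr19:20492715-20643465, plus strand) and Aldh1a7 (chr19:20692953-20727562, minus strand) lie tail to tail, 49.5 kb apart. The other 5 ALDH genes are each on a chromosome of their own. Aldh1b1 is at chr4:45799022-45804604, Aldh2 at chr5:121566027-121593824, Aldh1l1 at chr6:90486427-90600203, Aldh8a1 at chr10:21377291-21396585 and Aldh3a2 at chr11:61223417-61267464. Aldh1b1 has 2 exons, against 7 to 23 in the others.

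Aldh1a1 and Aldh1a7 were by far the most alike pair, with 91.6% of 1503 aligned coding bases identical. The next most alike ALDH pair, Aldh1b1 and Aldh2, shared 70.2% of 1548 aligned bases, and the 3 ADH pairs shared 64.2% to 67.1%. Over the last 300 bases of the transcripts, where MACE reads come from, Aldh1a1 and Aldh1a7 shared 79.7% over 311 aligned positions. No pair of members reached 95% identity over at least 100 bases there, so no member was marked as likely to exchange reads with another. An antisense gene overlaps the 3′ UTR of Adh1 (Gm16559) and another that of Aldh1l1 (Gm15756), with reads equal to 0.390% and 0.239% of the reads of Adh1 and Aldh1l1, and the sources used here do not state whether strand was used in counting. The Aldh1l1 entry also carries the identifier of Gm45901, a long noncoding RNA annotated within it.

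Promoter windows were available from RefSeq (GRCm38.p6) for 9 of the 10 genes, as 11 windows from 250 bases before to 50 bases after an annotated start. Aldh2 had no matching window. 4 of them are shown, chosen because they belong to the most alike pair of genes (Aldh1a1 and Aldh1a7), to the gene with opposite directions at the 2 times (Adh4) and to the gene with the lowest folds (Aldh3a2). Each is written 5′ to 3′ on the gene's strand, with matches to the searched motifs in capitals (ATTGG is a CCAAT box on the opposite strand). The windows are chr19:20601718-20602017 for Aldh1a1 (plus strand, the downstream one of its 2 starts), chr19:20727507-20727806 for Aldh1a7 (minus), chr3:138415247-138415546 for Adh4 (plus) and chr11:61267137-61267436 for Aldh3a2 (minus).
Aldh1a1: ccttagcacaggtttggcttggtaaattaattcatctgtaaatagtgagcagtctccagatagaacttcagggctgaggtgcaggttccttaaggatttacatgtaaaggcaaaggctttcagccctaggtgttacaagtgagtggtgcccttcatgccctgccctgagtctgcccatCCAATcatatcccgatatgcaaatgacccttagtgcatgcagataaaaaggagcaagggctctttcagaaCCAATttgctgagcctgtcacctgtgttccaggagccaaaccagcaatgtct
Aldh1a7: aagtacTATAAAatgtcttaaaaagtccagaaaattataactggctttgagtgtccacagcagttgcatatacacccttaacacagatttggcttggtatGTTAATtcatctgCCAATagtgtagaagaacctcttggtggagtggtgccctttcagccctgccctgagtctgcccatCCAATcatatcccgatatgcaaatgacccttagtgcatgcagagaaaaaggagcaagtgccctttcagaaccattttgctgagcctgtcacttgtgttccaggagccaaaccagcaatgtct
Adh4: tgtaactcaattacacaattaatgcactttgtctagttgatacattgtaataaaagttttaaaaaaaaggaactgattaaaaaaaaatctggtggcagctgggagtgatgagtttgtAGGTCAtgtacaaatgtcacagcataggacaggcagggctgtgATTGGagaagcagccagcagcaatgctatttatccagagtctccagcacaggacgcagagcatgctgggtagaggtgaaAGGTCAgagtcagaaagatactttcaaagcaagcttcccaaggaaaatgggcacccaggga
Aldh3a2: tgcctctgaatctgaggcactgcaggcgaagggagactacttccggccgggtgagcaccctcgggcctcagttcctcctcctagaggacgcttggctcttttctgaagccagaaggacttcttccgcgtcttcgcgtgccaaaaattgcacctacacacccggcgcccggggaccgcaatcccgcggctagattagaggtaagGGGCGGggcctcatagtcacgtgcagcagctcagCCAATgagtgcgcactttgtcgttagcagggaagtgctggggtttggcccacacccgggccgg

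Both strands of each window were searched for 7 motifs. The CCAAT box was in 6 of the 11 windows, against 37.4% of 32544 RefSeq promoter windows of the same length. The GC box, searched as GGGCGG, was in 4 of the 11, against 35.9% of all windows. A nuclear receptor half-site was searched as AGGTCA and was in 2 (16.2%). The C/EBP motif TTGCNNAA was in 2 (10.8%), and the TATA box, as TATAAA, also in 2 (13.6%). The HNF1 half-site was searched as GTTAAT and was in 1 (7.13%). The core of the antioxidant response element, TGACNNNGC, was in 0 (12.4%). No searched motif contains another of them. The Aldh1a1 and Aldh1a7 windows shared 77.5% of 285 aligned bases, and both hold a CCAAT that begins 72 bases before the start. The Adh4 window holds AGGTCA at 133 and at 11 bases before the start. In the Aldh3a2 window GGGCGG and CCAAT lie 47 and 13 bases before it. These matches describe the letters only. The member windows had a median GC content of 47.0% and a median of 4 CpG, against 53.0% and 7 in all windows.

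The 4 libraries held between 4859661 and 5698778 reads, with 19637 to 20641 genes detected in each. Counts were scaled by size factors of 0.880 (control 24 h), 0.933 (control 48 h), 1.17 (APAP 24 h) and 1.07 (APAP 48 h), the median of ratios to the average library, and scaled values are called normalized read counts. A fold is the normalized count of the APAP library over that of the control library of the same time. Scaling by library totals in place of size factors shifts every log2 fold upwards, by 0.19 for the earlier and 0.27 for the later time. Among the 12113 genes whose mean over the 4 libraries reached 10 normalized reads, 689 were at least 2-fold lower and 709 at least 2-fold higher at 24 h, and 680 and 699 at 48 h. With library totals the split becomes 443 against 1066 at 24 h, then 394 against 1196 at 48 h. All 10 ADH and ALDH genes passed that minimum. The hepatocyte markers Alb and Apoa1 were among the 9 measured of 10 listed, and the summed level of these 9 was 83793 to 101333 RPM (reads scaled to a common library total) in the 4 libraries, against 4.32 to 48.8 RPM for 6 monocyte and neutrophil markers.

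At 24 h after APAP, 9 of the 10 genes were lower than in the control library with intervals below 1, and Adh4 was higher. At 48 h all 10 were lower, with all 10 intervals below 1 when scaled by size factors. Library totals raised every fold, and at 48 h those of Aldh8a1 (0.981), Aldh2 (0.886), Aldh1b1 (0.861) and Adh1 (0.856) came nearest to 1. The same shift takes the upper bounds for Aldh8a1 and Aldh1b1 (0.901 and 0.846 by size factors) past 1, so their intervals then include 1. The median log2 fold of the 10 genes was -0.91 at 24 h and -0.79 at 48 h, which is a median 1.88 and 1.73 times lower, while the median log2 fold of the 12113 genes was 0.01 and -0.02. Of the genes that reached the minimum mean, 49.6% had a fold below 1 at 24 h and 51.4% at 48 h. The share of all genes with an interval below 1 was not counted. Aldh3a2 and Aldh1a7 had the lowest folds of the 10 genes at both times. In these bulk samples fewer cells of a type and less RNA per cell cannot be told apart.

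**Figure D1:**
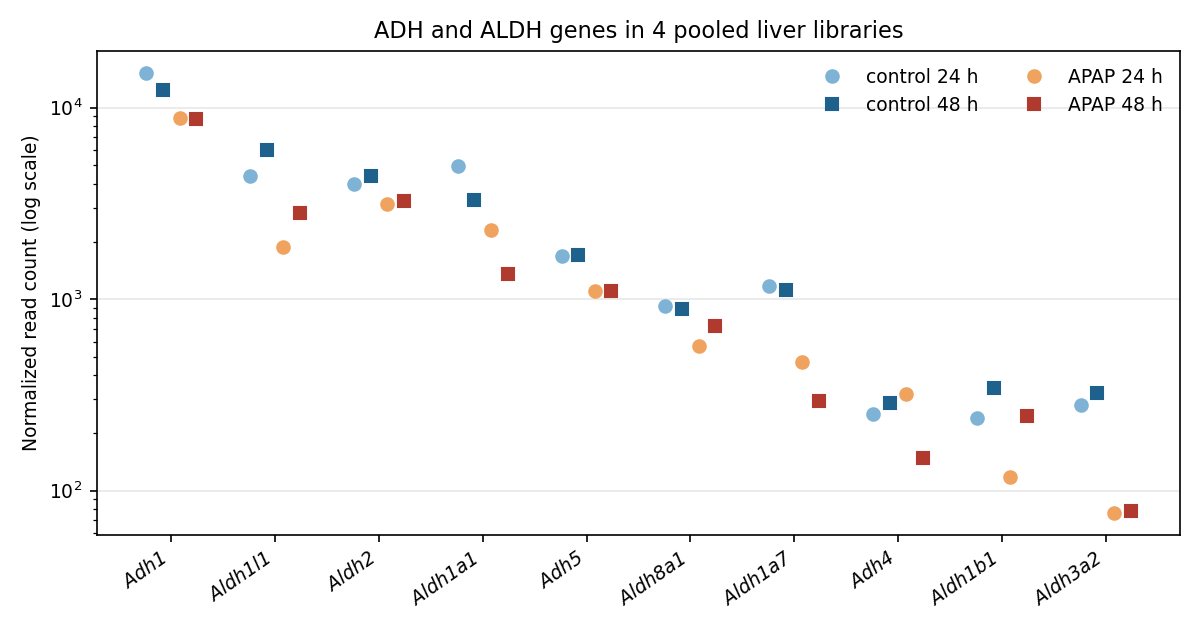
Normalized read count (log scale) of the 10 ADH and ALDH genes, ordered by mean count, with 1 point per pooled library (circles 24 h, squares 48 h, blue control, orange and red APAP). In 8 of the 10 genes both APAP points lie below both control points. The exceptions are Adh4, whose APAP 24 h point (319) is the highest of its 4, and Aldh1b1, whose APAP 48 h point (246) lies between its controls. The share of all genes with both APAP values below both controls was not counted.

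Adh1 encodes the class I alcohol dehydrogenase, the main ethanol-oxidizing enzyme of the liver, and took the most reads of the 10 genes. Its normalized counts were 15217 in control 24 h, 12314 in control 48 h, 8855 in APAP 24 h and 8768 in APAP 48 h. Both APAP libraries lay below both control libraries, and the 2 APAP libraries were nearly level (APAP 48 h over APAP 24 h, 0.990). At 24 h the fold was 0.582 (0.567 to 0.597), and at 48 h 0.712 (0.693 to 0.732). The less deep fold at 48 h goes with a control 48 h library that was itself 0.809 (0.789 to 0.830) of control 24 h.

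Adh5 encodes the class III enzyme, which oxidizes the glutathione adduct of formaldehyde and reduces S-nitrosoglutathione. Its normalized counts were 1689 and 1698 in the control libraries and 1107 and 1103 in the APAP libraries, at 24 h and 48 h. The control libraries were level with each other, and so were the APAP libraries. The folds were 0.655 (0.608 to 0.707) and 0.649 (0.602 to 0.701), and their ratio, 48 h over 24 h, was 0.991 with an interval of 0.890 to 1.10.

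Adh4 encodes the class II enzyme, with activity on retinol and on larger alcohols. It had normalized counts of 251 and 288 in the control libraries, 319 in APAP 24 h and 148 in APAP 48 h, from raw counts of 221, 269, 375 and 158. APAP 24 h was the highest of the 4 libraries and APAP 48 h the lowest. At 24 h the fold was 1.27 (1.07 to 1.51), and at 48 h 0.514 (0.419 to 0.627). The later fold was 0.404 times the earlier one, with an interval of 0.310 to 0.527, the lowest such ratio of the 10 genes, while the control libraries differed by 1.15-fold with an interval of 0.957 to 1.38 that includes 1. Taken against control 48 h, the fold of APAP 24 h was 1.11. No other member had folds on opposite sides of 1.

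Among the ALDH genes, Aldh1a1 encodes the cytosolic retinal dehydrogenase that is abundant in liver. Its normalized counts were 4960 in control 24 h, 3285 in control 48 h, 2289 in APAP 24 h and 1347 in APAP 48 h. Both APAP libraries lay below both controls, and at either treatment the 48 h library lay below the 24 h library. The folds were 0.461 (0.440 to 0.484) at 24 h and 0.410 (0.385 to 0.437) at 48 h, that is 2.17 and 2.44 times lower. The control libraries also differed, by a fold of 0.662 (0.632 to 0.694), the lowest control fold of the 10 genes.

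Aldh1a7 is the neighbour and close homologue of Aldh1a1. Its normalized counts were 1173 and 1119 in the controls, 470 in APAP 24 h and 293 in APAP 48 h. In contrast to Aldh1a1 the control libraries were level, with a fold of 0.954 (0.875 to 1.04). The folds after APAP were 0.401 (0.361 to 0.445) and 0.261 (0.230 to 0.297), so the gene was 3.83 times lower at 48 h, and the fold at 48 h was 0.652 (0.552 to 0.770) times that at 24 h. The ratio of the 2 folds was 0.889 (0.821 to 0.963) in Aldh1a1.

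Aldh8a1 encodes a cytosolic enzyme with activity on 9-cis-retinal that also takes part in tryptophan breakdown. It had 916 and 885 normalized reads in the controls, 572 in APAP 24 h and 722 in APAP 48 h. All APAP values were below the controls, with the 48 h value nearer to them. The fold went from 0.625 (0.563 to 0.693) at 24 h to 0.816 (0.739 to 0.901) at 48 h, the fold nearest to 1 of the 10 genes at that time, and the ratio of both folds was 1.31 (1.13 to 1.51).

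**Figure D2:**
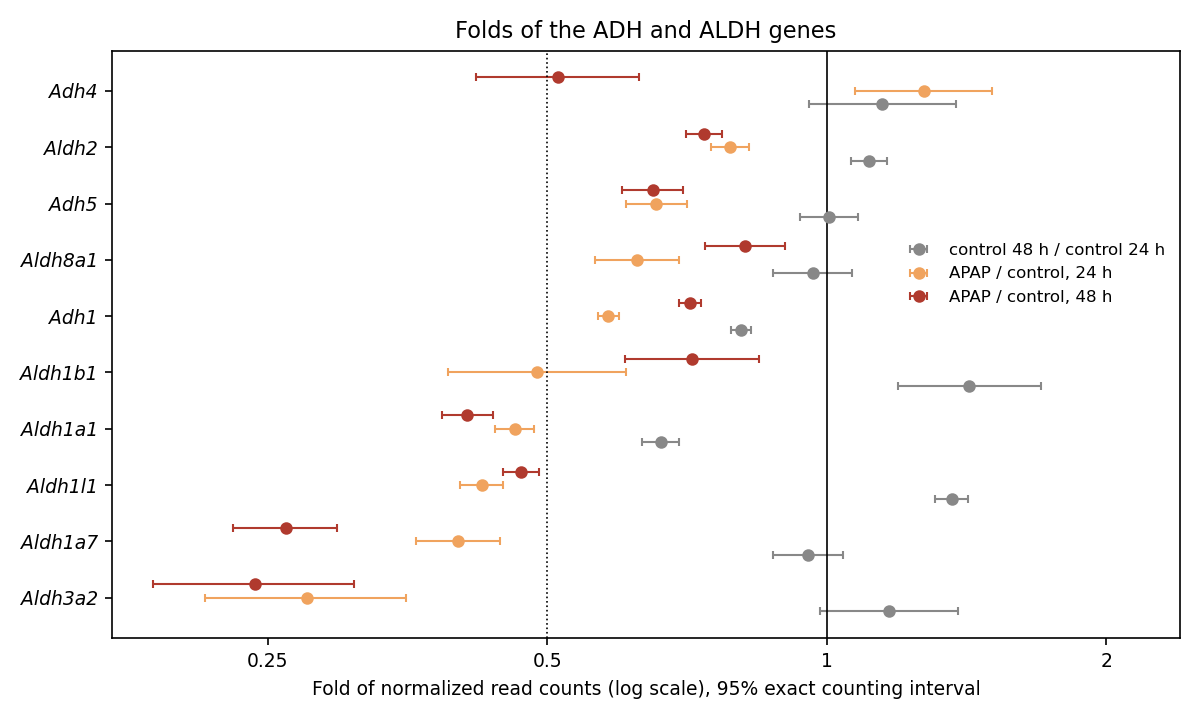
Folds of the 10 genes on a log axis with 95% exact counting intervals, for APAP over control at 24 h (orange) and 48 h (red) and for control 48 h over control 24 h (grey), ordered by the fold at 24 h. The dotted line marks a fold of 0.5. To its left at both times lie Aldh3a2 (0.275 and 0.242), Aldh1a7 (0.401 and 0.261), Aldh1a1 (0.461 and 0.410) and Aldh1l1 (0.425 and 0.468). The control folds lie between 0.662 and 1.42.

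Both mitochondrial enzymes that oxidize acetaldehyde were lower after APAP, but to different extents. Aldh2, the main acetaldehyde dehydrogenase of the liver, had normalized counts of 3971 and 4408 in the controls and 3122 and 3250 in the APAP libraries. Its folds of 0.786 (0.750 to 0.824) and 0.737 (0.704 to 0.772) were the mildest lower fold at 24 h and, at 48 h, the mildest after that of Aldh8a1. The control libraries differed by a fold of 1.11 (1.06 to 1.16), while APAP 24 h was 1.27 times lower than its control.

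Aldh1b1, the other mitochondrial enzyme, which also acts on retinal, is a low-count gene with raw counts of 212, 320, 138 and 262 in control 24 h, control 48 h, APAP 24 h and APAP 48 h. Its normalized counts were 241, 343, 118 and 246. The APAP 48 h library lay within the range of the controls, and APAP 24 h was the lowest library. The folds were 0.488 (0.391 to 0.607) and 0.716 (0.606 to 0.846), with a ratio of 1.47 (1.11 to 1.94), the highest of the 10 genes. Control 48 h was 1.42 (1.19 to 1.70) times control 24 h, and against control 24 h the APAP 48 h library gave a fold of 1.02, so the direction at 48 h rests on which control pool is used.

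Aldh1l1 encodes cytosolic 10-formyltetrahydrofolate dehydrogenase, an enzyme of folate and formate metabolism. Its normalized counts were 4397 in control 24 h, 5995 in control 48 h, 1869 in APAP 24 h and 2805 in APAP 48 h. Both APAP libraries lay below both controls, and within each treatment the 48 h library was the higher. The folds were 0.425 (0.403 to 0.448) and 0.468 (0.447 to 0.489), the control fold was 1.36 (1.31 to 1.42) and APAP 24 h had 0.666 times the normalized count of APAP 48 h.

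Aldh3a2 encodes the microsomal fatty aldehyde dehydrogenase, which oxidizes long-chain aldehydes from lipid breakdown. It had the fewest reads after APAP, with raw counts of 245, 303, 90 and 84 in control 24 h, control 48 h, APAP 24 h and APAP 48 h. Normalized, these were 279, 325, 76.7 and 78.8, so that the APAP libraries were level and far below both controls. The folds were 0.275 (0.214 to 0.352) and 0.242 (0.188 to 0.310), or 3.63 and 4.12 times lower. In the order of folds from the lowest, Aldh3a2 was at rank 134 at 24 h and 130 at 48 h of 12113 genes, and its control fold of 1.17 had an interval of 0.982 to 1.39.

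Counted by size of the fold, 5 of the 10 genes were at least 2-fold lower at 24 h (Aldh1a1, Aldh1a7, Aldh1b1, Aldh1l1 and Aldh3a2), against 5.69% of all 12113 genes. At 48 h there were 4 (Aldh1a1, Aldh1a7, Aldh1l1 and Aldh3a2), against 5.61%, and these 4 were at least 2-fold lower at both times, against 2.41%. No member was at least 2-fold higher, where 5.85% of genes were at 24 h, 5.77% at 48 h and 2.16% at both times. All members past 2-fold were ALDH genes, and none of the 3 ADH genes was among them. Counting error does not part Adh4 at 48 h (0.514, 0.419 to 0.627) from that threshold, since its interval includes 0.5. The same holds for Aldh1b1 at 24 h (0.488, 0.391 to 0.607), which was counted as past it. Between the control libraries no member passed 2-fold in either direction, where 2.41% of genes were lower and 2.89% higher.

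A 1.5-fold threshold took in 8 members at 24 h (all but Adh4 and Aldh2), against 14.5% of genes, and 6 at 48 h (Adh4, Adh5, Aldh1a1, Aldh1a7, Aldh1l1 and Aldh3a2), against 14.4%. At 3-fold, 1 member was lower at 24 h (Aldh3a2), against 1.73% of genes, and 2 at 48 h (Aldh1a7 and Aldh3a2), against 1.96%. The background of lower genes after APAP was nearly the same among well-counted genes. Among the 4398 genes whose mean reached 100 normalized reads, which include all 10 members, 5.71% were at least 2-fold lower at 24 h and 6.12% at 48 h. Scaled by library totals, 3 members were at least 2-fold lower at 24 h (Aldh1a7, Aldh1l1 and Aldh3a2), against 3.66% of genes, and 3 at 48 h (Aldh1a1, Aldh1a7 and Aldh3a2), against 3.25%. Aldh1a7 and Aldh3a2 were lower at both times under that scaling, against 1.46% of genes. The same 2 genes remained at both times against the control pool of the other time (2.25% of genes) and against both control pools summed (2.59%), and Aldh3a2 alone was 3-fold lower at both times (0.859%).

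**Figure D3:**
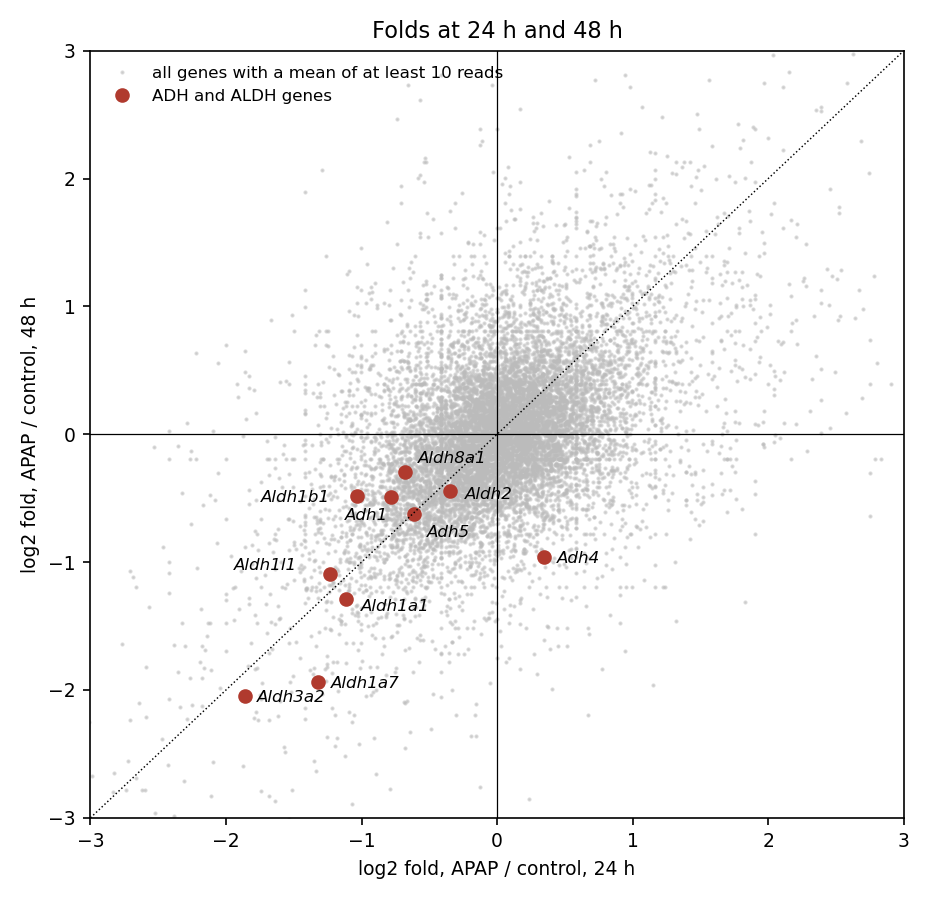
Log2 fold at 48 h against log2 fold at 24 h for 12107 genes with a finite value at both times (grey, 127 of them outside the axis range of 3 on either side of 0) and for the 10 ADH and ALDH genes (red). Of the 10, 9 have both log2 folds below 0, from Aldh2 near the origin to Aldh3a2. Adh4 lies to the right of 0 at 24 h and below 0 at 48 h. The share of all genes with both log2 folds below 0 was not counted.

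The folds at both times use different control pools, and these differed for several members. The control 48 h library was lower than control 24 h with an interval below 1 for Adh1 and Aldh1a1, higher with an interval above 1 for Aldh1b1, Aldh1l1 and Aldh2, and had an interval including 1 for the other 5. The median log2 control fold of the 10 genes was 0.08, against 0.02 for all genes. The control fold was below 1 in 4 of the 10 and in 48.3% of all genes. The share of all genes with an interval excluding 1 was not counted. Between the APAP libraries, Adh1, Adh5, Aldh2 and Aldh3a2 were level from 24 h to 48 h (0.990 to 1.04), each with an interval that includes 1. That of Aldh3a2 was wide (0.754 to 1.40). Adh4 (0.464), Aldh1a1 (0.589) and Aldh1a7 (0.622) were lower at 48 h, while Aldh8a1 (1.26), Aldh1b1 (2.09) and Aldh1l1 were higher. By these intervals the 10 genes split 3, 4 and 3 between the 2 APAP libraries, and the like shares of all genes were not counted. Without regard to intervals, 5 of the 10 genes and 50.7% of all genes had a lower value at 48 h. The controls moved the same way for Aldh1a1 (0.662), Aldh1b1 (1.42) and Aldh1l1 (1.36). For Adh4, Aldh1a7 and Aldh8a1 the control interval included 1. Adh1 was level after APAP, but its fold at 48 h was 1.22 (1.18 to 1.27) times that at 24 h. The split compares the APAP libraries alone. Relative to control, the ratio of folds (48 h over 24 h) was below 1 for Adh4 (0.404), Aldh1a1 (0.889) and Aldh1a7 (0.652). It was above 1 for Aldh1b1 (1.47), Aldh1l1 (1.10) and Aldh8a1 (1.31), with intervals excluding 1 in all of these when scaled by size factors. Adh5, Aldh2 and Aldh3a2 had ratios with intervals that include 1.

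Summed over the 10 genes, reads made up 0.599% and 0.551% of the control libraries and 0.387% and 0.405% of the APAP libraries at 24 h and 48 h. In RPM these were 5990 (5922 to 6059), 5508 (5444 to 5572), 3873 (3822 to 3924) and 4052 (3996 to 4108). On normalized counts the sum was 33095 and 30660 in the controls and 18797 and 18760 after APAP, a fold at 24 h of 0.568 (0.558 to 0.578) and at 48 h of 0.612 (0.601 to 0.623). The 3 ADH genes together had folds of 0.599 and 0.701, and the 7 ALDH genes 0.534 at either time. The sum was level between the APAP libraries (0.998), although its parts were not.

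The make-up of the sum shifted between genes. MACE counts are not divided by transcript length, since each transcript is read at its 3′ end, so the shares are shares of reads. Adh1 held 46.0% and 40.2% of the member reads in the controls and 47.1% and 46.7% after APAP. Aldh2 held 16.6% and 17.3% after APAP, more than in either control (14.4% at most). Aldh1a1 held 10.7% in control 48 h, 12.2% in APAP 24 h and 7.18% in APAP 48 h, with its highest share in control 24 h. The share of Aldh1l1 was lowest in APAP 24 h (9.94%) and highest in control 48 h (19.6%).

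**Figure D4:**
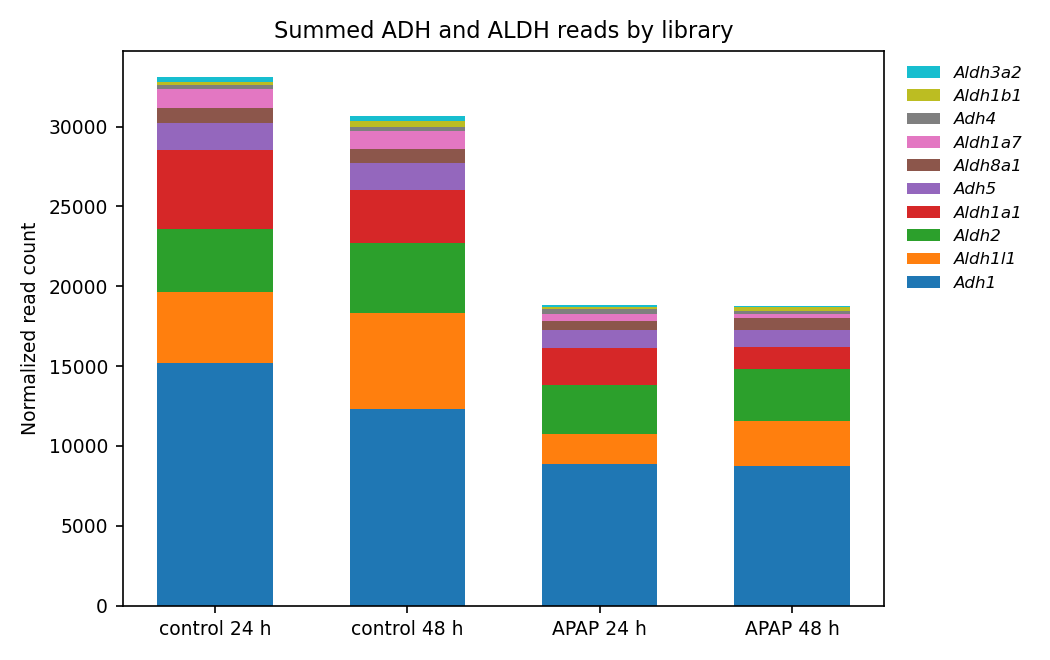
Normalized read counts of the 10 genes stacked in each of the 4 pooled libraries, from 0. The stacks reach 33095 and 30660 in the control libraries and 18797 and 18760 in the APAP libraries, and Adh1 is the largest part of each.

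Other members of both families were measured less often. Of 18 further ADH and ALDH genes listed, 16 were in the table and 9 reached the mean of 10 normalized reads. Of these 9, Adhfe1 was at least 2-fold lower at both times. At least 2-fold higher were Adh7 at 24 h (2.75, then 0.816 at 48 h) and Aldh3b1 at 48 h (1.62 at 24 h, then 3.17), on 12 to 44 and 8 to 29 reads per library. The median log2 fold was -0.30 at 24 h and -0.34 at 48 h. Adhfe1, a hydroxyacid-oxoacid transhydrogenase of the iron-containing ADH type, had raw counts of 229, 240, 147 and 116 in control 24 h, control 48 h, APAP 24 h and APAP 48 h, and folds of 0.481 (0.388 to 0.594) and 0.423 (0.336 to 0.530).

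Of 16 other genes of alcohol and aldehyde metabolism, 12 were measured, of which 3 were at least 2-fold lower and 1 at least 2-fold higher at 24 h, and 3 lower and 0 higher at 48 h. The median log2 fold was -0.46 and -0.49. Acss2, the cytosolic acetyl-CoA synthetase that uses acetate, had raw counts of 2546 and 2119 in the controls and 328 and 344 after APAP. Its folds were 0.0965 (0.0858 to 0.108) and 0.142 (0.126 to 0.159), and its entry joins identifiers of genes that overlap it. Cat, catalase, which can oxidize ethanol in peroxisomes, had counts of 5374, 5764, 3535 and 3192 and folds of 0.493 (0.472 to 0.514) and 0.484 (0.464 to 0.506).

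All 16 listed genes of retinoid metabolism were measured, 4 of them at least 2-fold lower and 1 at least 2-fold higher at 24 h, and 3 lower and 0 higher at 48 h. The median log2 fold was -0.60 at 24 h and -0.26 at 48 h. The 3 genes lower at both times were Rdh11 and Rdh16, retinol dehydrogenases, and Cyp26a1, which degrades retinoic acid. Rdh11 had folds of 0.316 (0.262 to 0.380) and 0.312 (0.253 to 0.383), and Rdh16 0.336 (0.270 to 0.418) and 0.184 (0.144 to 0.232). Cyp26a1 rested on few reads, 20 and 64 in the controls against 4 and 6 after APAP, and its control libraries differed by 3.02-fold, so that its folds of 0.150 (0.0372 to 0.447) and 0.0820 (0.0290 to 0.188) are wide.

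**Figure D5:**
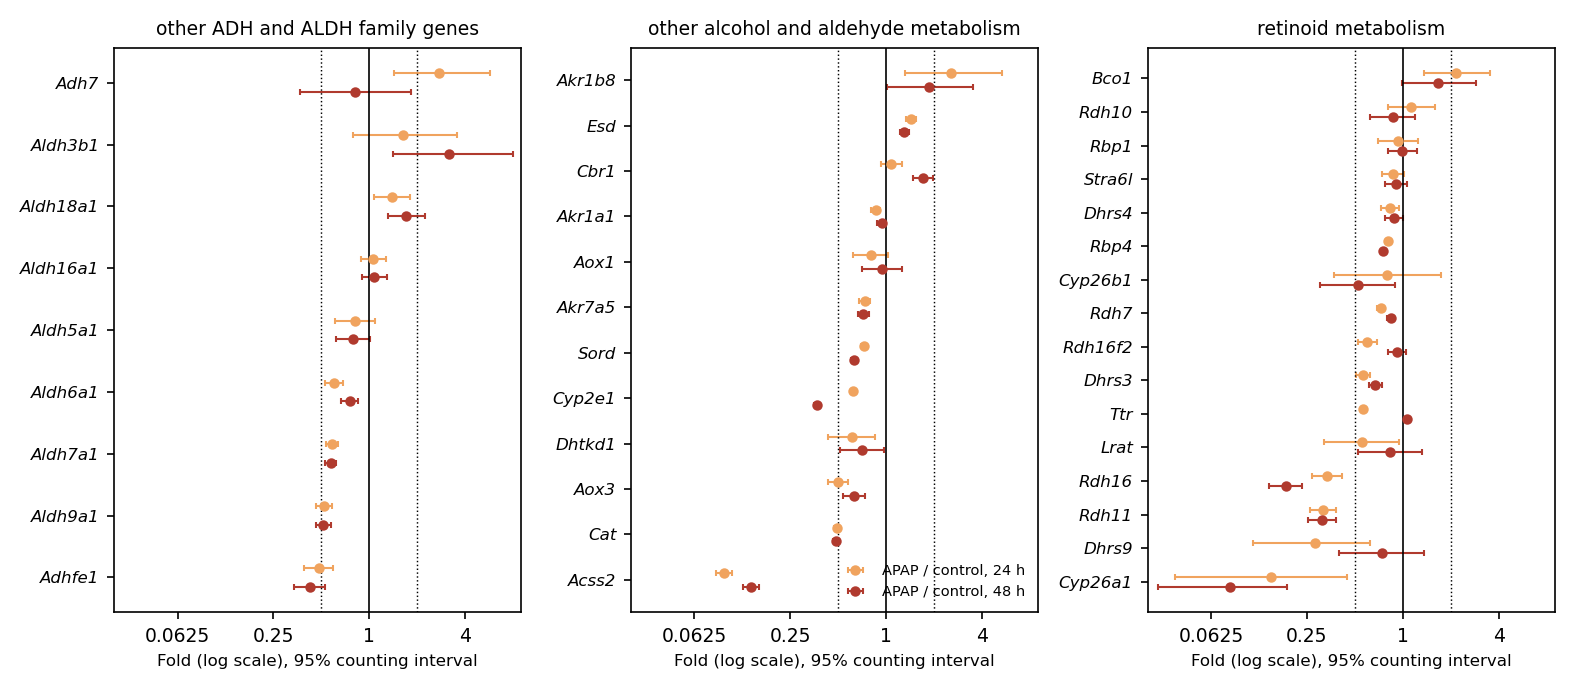
Folds of APAP over control at 24 h (orange) and 48 h (red) on a log axis, with 95% counting intervals, for the measured genes of the 3 lists outside the 10 genes: 9 other ADH and ALDH genes, 12 other genes of alcohol and aldehyde metabolism and 16 genes of retinoid metabolism. Dotted lines mark 2-fold in each direction, and Acss2 (0.0965 and 0.142), Rdh16 and Cyp26a1 lie farthest to the left.

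Markers of liver zones and of other cells moved with the APAP libraries, and their part in the folds of the ADH and ALDH genes was not tested. Of 12 listed pericentral hepatocyte markers, 11 were measured, 9 were at least 2-fold lower at 24 h and 9 at 48 h, 8 of them at both times, and none was higher. Their summed level was 3917 and 4354 RPM in the controls and 1770 and 1577 RPM after APAP. Marker sums in RPM, here and below, use library totals and not size factors. That scaling sets APAP over control higher than the folds do, by 0.19 log2 at 24 h and 0.27 at 48 h. Glul, glutamine synthetase of the innermost pericentral hepatocytes, had folds of 0.107 (0.0968 to 0.119) and 0.0850 (0.0756 to 0.0953). Slc1a2 and Rhbg, a glutamate and an ammonium transporter of these cells, had folds of 0.189 and 0.174 at 24 h and 0.120 and 0.0882 at 48 h. Cyp2e1, the ethanol-inducible cytochrome P450 that converts APAP to its reactive metabolite, stands in this list and in that of alcohol metabolism, with folds of 0.623 and 0.369.

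Of 12 periportal markers, all measured, 3 were at least 2-fold lower and 1 higher at 24 h, and 1 lower and 1 higher at 48 h, with summed levels of 6952 and 8553 RPM in the controls and 5676 and 8954 RPM after APAP. Cyp2f2 was lower (0.444 and 0.249), and Pck1, a gluconeogenic enzyme, higher (4.07 and 3.31). Of the 9 hepatocyte markers measured, 0 were at least 2-fold lower, 1 was higher at 24 h and 0 at 48 h, and the median log2 fold was -0.20 and 0.04. Over all 12113 genes 5.69% were at least 2-fold lower at 24 h and 5.61% at 48 h, so 0 of 9 says little. The 11 measured pericentral markers had median log2 folds of -1.48 and -1.93, and the 10 ADH and ALDH genes -0.91 and -0.79. How these sets relate was not tested.

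Markers of other cells were counted in the same way. Of 8 monocyte and neutrophil markers listed, 4 were measured, and all 4 were at least 2-fold higher at both times. The 6 with an entry summed to 4.32 and 5.39 RPM in the controls and 48.8 and 47.0 RPM after APAP. S100a8 had 5 and 10 reads in the controls and 139 and 106 after APAP. With so few control reads, the 4 reached the minimum mean through the APAP libraries, so their direction was largely set by that filter. Of 10 macrophage and Kupffer cell markers, 2 were higher at 24 h and 3 at 48 h, among them Marco and Lyz2 at both times, with summed levels of 249 and 247 RPM in the controls and 339 and 553 RPM after APAP. Of 8 stellate cell and fibroblast markers, 1 was higher and 1 lower at 24 h and 3 were higher at 48 h, with sums of 87.5, 92.6, 128 and 222 RPM, and Acta2 reached 13.6-fold at 48 h. The 8 endothelial markers summed to 177 and 192 RPM in the controls and 213 and 241 RPM after APAP, with 1 (Lyve1) higher at both times. The 6 cholangiocyte markers, of which 2 were measured, summed to 25.9, 32.9, 81.9 and 66.2 RPM, and the 8 lymphocyte markers, of which 2 were measured and Cd8a was at 0 in every library, to 7.32 to 10.3 RPM.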

How the data were processed

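MACE libraries of pooled liver RNA were analysed, 1 library for each of 4 groups (control and APAP, 24 h and 48 h). The authors removed duplicate reads by unique molecular identifiers, mapped to mouse build mm10 and deposited raw read counts per gene from HTSeq. Tool versions, the annotation and the strand setting are not given in the sources used here. The deposited table also holds RPM values, log ratios and test values by the authors, which were not used.

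Samples were grouped by their labels. Size factors came from DESeq2 1.42.0 (median of ratios over 16338 genes with reads in all 4 libraries) and with edgeR 4.0.16 (TMM), in R 4.3.3. No test of either tool was run, since each group has 1 library. Folds and 95% exact (Clopper-Pearson) intervals, and the exact conditional interval of the ratio of both folds, were computed in Python 3.11.15 with scipy 1.17.1 and pandas 2.3.3. Library totals were 4859661 (control 24 h), 5191990 (control 48 h), 5698778 (APAP 24 h) and 4938164 (APAP 48 h), so 3 reads equal 0.526 to 0.617 RPM. A gene counted as lower or higher at 2-fold or more, a threshold chosen for this report (the study's was 5-fold), and was tested only if its mean reached 10 normalized reads. The procedure was checked on data simulated with counting error only, so the check cannot speak to the spread between mice or pools. Sequences were compared with blastn 2.17.0 and Biopython 1.88 on GENCODE mouse release 21 and RefSeq promoters.

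Outside the 10 genes, up to 3 lower and 3 higher genes of a list were named, those at least 2-fold past at both times with the larger folds. Cyp2e1, Alb, Apoa1, Cd8a, Adh7 and Aldh3b1, and the genes of the other observations, were named after their values were seen. The members and lists were chosen with earlier results of these data known. Alternatives were TMM, library totals, the other control pool or both summed, a pseudocount of 1, thresholds of 1.5- and 3-fold, the interval bound, and no minimum mean or one of 100.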

Additional observations from a re-analysis of the deposited data

Results flagged for a closer look

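Adh4 was the gene of the 10 whose folds at 24 h and 48 h lay on opposite sides of 1, higher at 24 h (1.27, 1.07 to 1.51) and lower at 48 h (0.514, 0.419 to 0.627). The fold at 48 h was 0.404 times that at 24 h. Both intervals exclude 1 by counting error, on 158 to 375 reads per library. Against the control pool of 48 h the fold at 24 h was 1.11, and against both control pools summed it was 1.18. Intervals for these values are not given, so the size of the higher fold at 24 h depends on the control pool. The comparison is between 4 pooled libraries, and the difference between the times was not tested across mice.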

How the results depend on the processing

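No paired analysis was possible because each group is 1 pooled library and the labels give no replicate numbers, and for the same reason no replicate could be left out. Of 100 member folds recomputed over 5 alternatives, 94 lay below 1, as did 19 of the 20 as reported. The 1 fold that changed direction was Aldh1b1 at 48 h, at 1.02 against the control pool of 24 h. TMM and a pseudocount of 1 moved none of the 40 folds beyond their counting intervals. Library totals moved 15 of 20, the other control pool 9 of 20 besides the 1 reversed, and both pools summed 8 of 20. The median fold of the 10 genes at 24 h was 0.606 with library totals and 0.650 against the other control pool, and at 48 h 0.694 with library totals. The summed level at 24 h was 0.646 of control in RPM and 0.568 on normalized counts, and at 48 h 0.736 and 0.612. Depth limits Adh4, Aldh1b1 and Aldh3a2 most, at 84 to 375 reads per library.

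Members at least 2-fold lower at 24 h were 3 with library totals, 8 at 1.5-fold and 1 at 3-fold, and at 48 h 2 at 3-fold. At both times they were 2 with library totals, against the other control pool or against both pools summed, and 1 at 3-fold. Genes at least 2-fold lower at 24 h numbered 443 with library totals, 1752 at 1.5-fold, 210 at 3-fold, 213 by the interval bound, 3882 without a minimum and 251 at a mean of 100, and genes higher 1066, 1714, 266, 151, 4543 and 100 in that order. At 48 h these were 394, 1743, 237, 266, 3649 and 269 lower, and 1196, 1649, 222, 126, 4671 and 82 higher. Between the controls they were, from 1.5-fold on, 1025, 63, 16, 3842 and 11 lower, and 1077, 91, 14, 3315 and 16 higher.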

Other observations

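A few genes of the same families or pathways had higher folds after APAP, and they were picked out after their values were seen. Adh7, the class IV enzyme with high activity on retinol, had 12 and 15 reads in the controls, 44 in APAP 24 h and 14 in APAP 48 h, so that it was 2.75-fold higher (1.43 to 5.71) at 24 h and had a fold of 0.816 (0.365 to 1.81) at 48 h. Like Adh4, which lies in the same cluster on chromosome 3, it had its highest count in APAP 24 h. Adh1 and Adh5, also in that cluster, were lower at 24 h (0.582 and 0.655). Aldh3b1 had 12 and 8 reads in the controls and 26 and 29 after APAP, with folds of 1.62 (0.791 to 3.53) at 24 h and 3.17 (1.41 to 8.02) at 48 h. Adh6a had no read in any library, and Adh6b had 1 read in all.

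Aldh18a1, an enzyme of proline synthesis, had 93 and 84 reads in the controls and 172 and 164 after APAP, with folds of 1.39 (1.07 to 1.80) and 1.71 (1.30 to 2.25). Esd, S-formylglutathione hydrolase, which acts on the product of ADH5, had 1265 and 1429 reads in the controls and 2422 and 2131 after APAP. Its folds of 1.43 (1.34 to 1.54) and 1.30 (1.22 to 1.40) stand beside folds of 0.655 and 0.649 in Adh5. Cbr1, a carbonyl reductase, had a fold of 1.08 (0.925 to 1.26) at 24 h and 1.70 (1.47 to 1.97) at 48 h. Aldh9a1 and Aldh7a1, on the other hand, had folds of 0.518 and 0.586 at 24 h and 0.515 and 0.570 at 48 h, within the range of the 10 genes.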
